A study of Mus musculus with 12 samples.

Results

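Chromatin accessibility at 10 genes of bone morphogenetic protein (BMP) signalling was followed in brown and inguinal fat of mice that lack BAF60a in adipocytes. The genes were the ligands Bmp4, Bmp7 and Bmp8b, the type I receptors Bmpr1a, Bmpr1b and Acvr1c, the type II receptor Bmpr2, and the signal transducers Smad1, Smad5 and Smad9. Every ATAC-seq peak that the deposited tables assign to one of these genes was taken, which gave 56 of 58558 peaks in brown adipose tissue (BAT), 37 of 39558 peaks in inguinal white adipose tissue (iWAT) and 93 of 98116 peaks in both. ATAC-seq counts the cuts that a transposase makes in open chromatin, so that the reads in a peak measure accessibility and not transcript abundance.

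All mice were C57BL/6 and carried floxed BAF60a alleles (Smarcd1, a subunit of SWI/SNF chromatin remodelling complexes). Control mice were flox/flox, and AKO mice also carried Adiponectin-Cre, which deletes the gene in adipocytes and leaves it in the other cells of the tissue. BAT came from 3 flox and 3 AKO mice, each mouse a sample, and the age and housing temperature of these mice are not given in the sources used here. The iWAT came from mice of 6 to 8 months that had been acclimated to cold and kept at 10 °C for 7 days. Here the fat pads of 6 mice per genotype were pooled and divided, so that the 3 samples of a genotype are aliquots of 1 pool, and p-values in iWAT measure only the spread between aliquots. Whole tissue was used, so that fewer cells of a type and less accessible chromatin per cell cannot be told apart.

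BMP ligands are secreted dimers that bring type I and type II receptor kinases together at the cell surface. The activated type I receptor phosphorylates SMAD1, SMAD5 or SMAD9, which enter the nucleus with SMAD4 and act on target genes such as the Id genes. In fat, BMP4 is known for commitment of precursors to adipocytes, BMP7 for brown adipocyte differentiation, and BMP8B for thermogenesis in brown fat. ACVR1C (ALK7) is structurally a type I receptor of the same family, but responds to activins, nodal and growth differentiation factors and signals through SMAD2 and SMAD3.

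The following sequences belong to 3 distal sites described below. None of these sites passed an adjusted p of 0.1 in the main test, which is set out below. The sequences are read 5′ to 3′ from the GRCm38 (mm10) genome on the minus strand, which is the coding strand of Bmpr1b and Smad1. The first holds the central 200 bases (chr3:142086068-142086267) of the intron 1 peak with the smallest p-value in BAT. The second is the whole intron 1 peak that stood lower in AKO iWAT (chr3:142063587-142063875), and the last the whole peak upstream of Smad1 that did so (chr8:79498687-79498968). Capitals mark the letters AGGTCA, to which nuclear receptors bind, at base 118 of the Smad1 sequence. None of the 5 motifs searched was found in the other sequences.
Bmpr1b intron 1, BAT: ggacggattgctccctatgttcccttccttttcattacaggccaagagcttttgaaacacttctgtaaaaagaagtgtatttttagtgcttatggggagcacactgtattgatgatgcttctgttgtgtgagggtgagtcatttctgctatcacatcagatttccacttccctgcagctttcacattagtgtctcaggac
Bmpr1b intron 1, iWAT: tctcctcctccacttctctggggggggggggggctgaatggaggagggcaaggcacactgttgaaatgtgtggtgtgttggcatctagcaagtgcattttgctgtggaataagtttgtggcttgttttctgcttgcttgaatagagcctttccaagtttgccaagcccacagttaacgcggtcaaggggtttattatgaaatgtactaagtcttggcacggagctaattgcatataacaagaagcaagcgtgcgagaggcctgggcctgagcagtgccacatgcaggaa
Smad1 upstream, iWAT: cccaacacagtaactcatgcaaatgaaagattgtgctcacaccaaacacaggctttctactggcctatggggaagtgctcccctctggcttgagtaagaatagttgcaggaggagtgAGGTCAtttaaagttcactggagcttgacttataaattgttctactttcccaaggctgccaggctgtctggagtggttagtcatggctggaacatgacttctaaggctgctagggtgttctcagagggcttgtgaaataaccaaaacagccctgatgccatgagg

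Values are given as normalized reads, which are the reads of a peak scaled by each sample's size factor. Reads in peaks ranged from 6336670 to 27500738 in BAT and from 4066720 to 6691161 in iWAT. In BAT the first principal component (PC1) held 55.6% of the variance. At one end lay flox replicate 1, with the most reads in peaks, and at the other AKO replicate 2, with the fewest. Scores were -98.2, -41.8 and 14.6 in flox and -0.617, 112 and 13.5 in AKO. PC1 thus went partly with depth and partly with genotype, and the share of each in it was not tested. The BAT fits carry PC1 as a covariate. A fold change in BAT is therefore the difference at equal PC1, and its sign can differ from that of the group means. Smarcd1 itself was checked first. A BAT peak over its exon 5 (chr15:99704113-99704521), which also lies within Gm17349, held 136, 201 and 185 normalized reads in flox and 23.7, 57.9 and 26.9 in AKO, a log2 fold change of -2.98 ± 0.27 (SE), with an adjusted p of 0.269 in limma and 4.04e-11 in DESeq2. The iWAT table holds only the start-site peak of Smarcd1, which had a log2 fold change of 0.11 ± 0.15, so that the labels of the iWAT samples could not be checked in this way.

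Some marker lists moved with the genotype. Over 6 of 6 adipocyte markers with a peak in BAT, the summed reads were 19067 to 21437 in flox and 13603 to 17899 in AKO. Over the 6 of 6 brown or beige markers they were 20824 to 26053 and 14285 to 16298. The Ucp1 start site held 1556, 1247 and 816 reads in flox BAT and 363, 315 and 285 in AKO BAT. In iWAT the brown or beige sum was 1498 to 1572 in flox and 1733 to 1883 in AKO, and no peak covered the Ucp1 start, while the adipocyte sums overlapped. Other sums without overlap were those of preadipocytes in BAT, 4226 to 4333 in flox and 3885 to 4079 in AKO, and in iWAT those of endothelial cells (4 of 6 markers), 766 to 855 and 671 to 740, lymphocytes (2 of 6), 190 to 196 and 137 to 171, muscle (2 of 6), 780 to 971 and 740 to 775, and mural cells (5 of 6), 1285 at most in flox and 1287 at least in AKO. The remaining sums overlapped. Peaks within these sums could go opposite ways. Of 25 preadipocyte peaks in BAT, 3 had every AKO value below every flox value and 3 above. In iWAT this held for 2 below and 1 above of 3 lymphocyte peaks, and 1 below and 4 above of 17 mural peaks. It held for 2 below and 0 above of 12 endothelial peaks, and 1 below and 0 above of 2 muscle peaks. Of the lymphocyte markers Cd3e, Cd4, Cd8a and Cd79a had no peak in either table, and neither had the macrophage markers Cd68 and Lyz2. The part of these shifts in the results below was not tested.

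No member peak passed an adjusted p of 0.1 in the main test, limma on log2(normalized reads + 1) over all peaks with Benjamini-Hochberg adjustment, in either tissue. The same test called 0% of all 58558 peaks in BAT and 0% of all 39558 in iWAT, so that 0 of 56 and 0 of 37 members say nothing particular about these genes. DESeq2 on the recovered reads gave no adjusted p to 18 of 56 BAT members and 9 of 37 iWAT members. In BAT it called 0 member peaks, beside 0.298% lower and 0.11% higher of the 42663 BAT peaks with an adjusted p. Among 35723 such peaks in iWAT it called 0.63% lower and 0.546% higher, and 1 member peak. That peak covered the Bmpr1b start site and was higher in AKO. edgeR called 0 member peaks in BAT, beside 0.114% of all peaks lower and 0.029% higher. In iWAT it called 1 member peak lower and 2 higher, beside 2.52% and 2.15% of all peaks.

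At an unadjusted p under 0.05, limma gave 3 BAT members lower in AKO and 0 higher, all 3 in Bmpr1b, where 5.59% of all BAT peaks were lower and 3.46% higher. In iWAT it gave 4 members lower and 9 higher, beside 7.42% and 7.61% of all peaks. The fold change was negative at 23 of 56 BAT members, or 41.1%, where 49.1% of all BAT peaks were negative, but at 30 of 56 without the PC1 covariate, which turned the sign of 19 members. It was negative at 13 of 37 iWAT members, or 35.1%, beside 50.1% of all iWAT peaks. Median log2 fold changes were small, 0.040 in BAT members and 0.101 in iWAT members, against 0.0067 and -0.00089 over all peaks, and that of the BAT members was -0.032 without PC1. In BAT 24 of 56 members kept their sign in all 6 limma fits with a sample left out. PC1 was recomputed on the remaining samples in each of these fits. The weight of a sample and that of the changed covariate therefore cannot be told apart. In iWAT 29 of 37 members kept their sign. Those fits had no covariate and each left out an aliquot of a pool, so the counts of the tissues are not comparable.

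**Figure D1:**
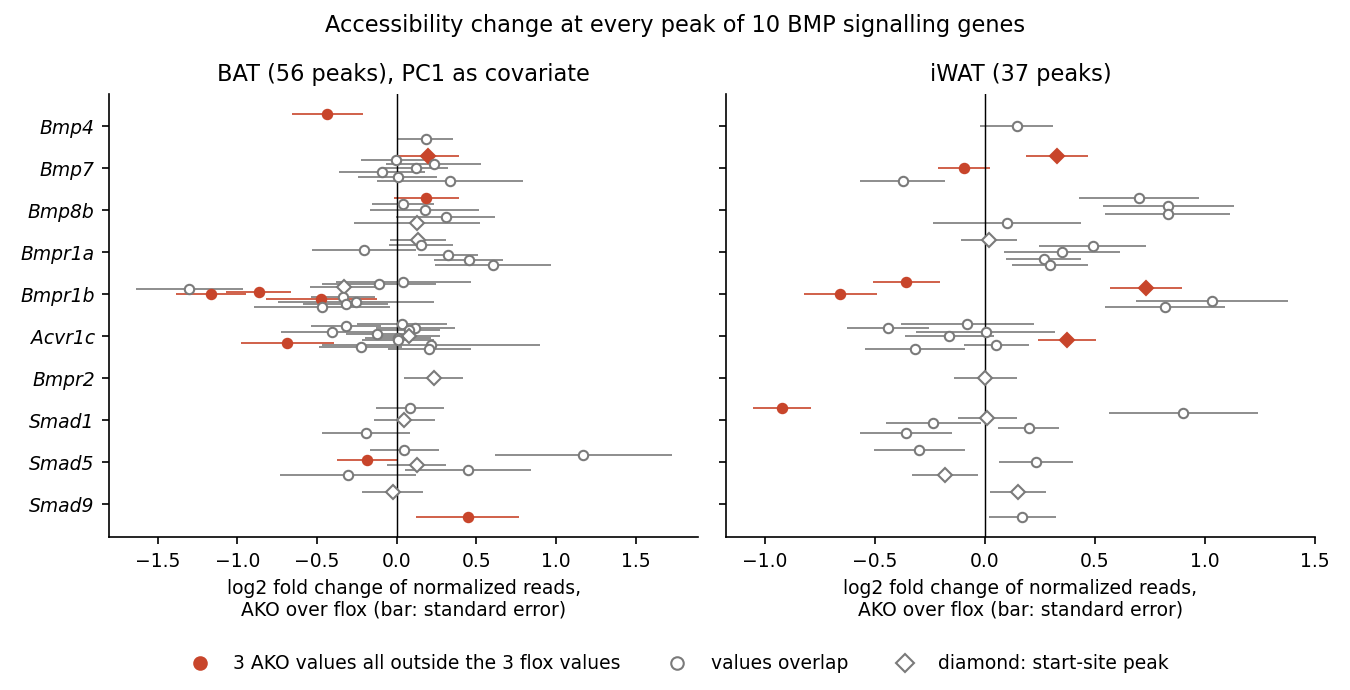
Log2 fold change of normalized reads, AKO over flox (x axis), at each of 56 BAT and 37 iWAT peaks of the 10 genes (rows), with standard errors from limma. Diamonds are start-site peaks, and filled red symbols are peaks at which all 3 AKO values lie beyond all 3 flox values. Most peaks sit near 0, and the filled Bmpr1b symbols lie to the left in BAT and on both sides in iWAT.

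With 3 samples against 3, no exact test can go below a p of 0.1, and complete separation of the groups was counted as a description. All 3 AKO values lay below all 3 flox values at 6 BAT members and above them at 3, beside 8.84% and 8.77% of all BAT peaks. In iWAT this held for 4 members below and 3 above, beside 10.3% and 10.6% of all iWAT peaks. In BAT 3 of the 6 lower peaks belonged to Bmpr1b, and the others to Bmp4, Acvr1c and Smad5. In iWAT 2 of the 4 lower peaks belonged to Bmpr1b and 1 each to Bmp7 and Smad1, and the 3 higher ones were the start-site peaks of Bmp7, Bmpr1b and Acvr1c.

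The start sites of these genes were open to different degrees. A peak covered the annotated start of 9 of the 10 genes in BAT and of 8 in iWAT. Bmp4 had none in either table, and Bmp8b none in iWAT. Per kilobase of peak, the mean over the 6 BAT samples was highest at Acvr1c with 483 normalized reads and at Bmpr1a with 479, followed by Smad1 with 433, Smad5 with 407, Bmp8b with 358, Bmpr1b with 342, Bmpr2 with 331, Bmp7 with 258 and Smad9 with 226. The sample ranges of neighbours in this order overlapped throughout, for example 416 to 537 for Acvr1c and 384 to 610 for Bmpr1a, of which Bmpr1a was the higher in flox, at 509 against 494. Those of Acvr1c and Smad9, 183 to 293, did not. In iWAT Bmpr1a led with 253 normalized reads per kilobase, then Smad5 with 217, Acvr1c with 215, Smad1 with 213, Bmp7 with 197, Bmpr2 with 194, Smad9 with 140 and Bmpr1b with 123. The order of the lowest pair differed by genotype. In flox, Bmpr1b was at 91.6 and Smad9 at 133 per kilobase, and in AKO at 154 and 148. The Bmpr1b samples ran from 84.9 to 177, a range that overlapped that of Smad9, 126 to 157. The ranges of Bmpr2, 171 to 210, and Smad9 did not overlap, while those of the other neighbours in the iWAT order did. This order depended on the division by peak width. By reads not divided by width, Bmp8b led in BAT at percentile 97.7 of all BAT peaks, with Acvr1c at 88.2. In iWAT Bmpr2 led in this way at percentile 95.1 of all iWAT peaks, with Bmpr1a at 91.4. Levels of BAT and iWAT were normalized separately and were not compared.

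**Figure D2:**
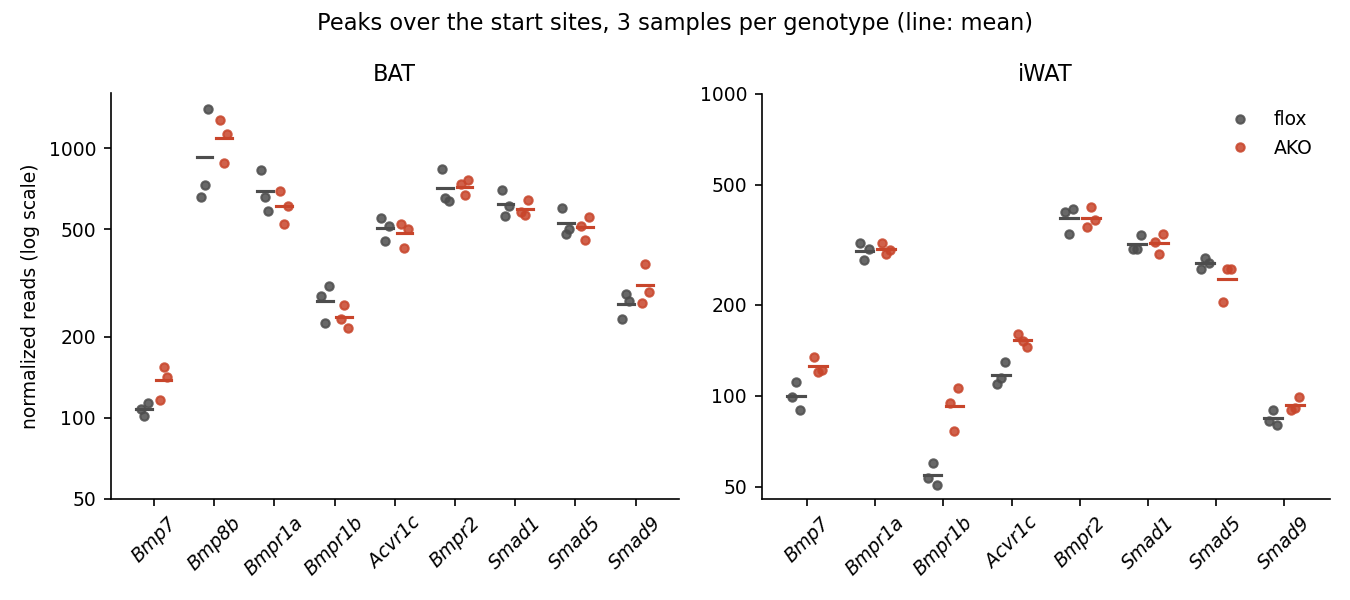
Normalized reads (y axis, log scale) at the start-site peaks of 9 genes in BAT and 8 in iWAT, with a point for each of the 3 flox (grey) and 3 AKO (red) samples and a line at the mean. The groups overlap at 8 of the 9 BAT peaks and stand apart at Bmp7, Bmpr1b and Acvr1c in iWAT.

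The ligands held 14 BAT and 8 iWAT peaks. Bmp7 was the only gene whose start-site peak stood apart in the same direction in both tissues. In BAT it held 108, 101 and 114 normalized reads in flox and 116, 155 and 142 in AKO, with a log2 fold change of 0.19 ± 0.19 and an adjusted p of 0.790. In iWAT it held 99.1, 111 and 89.5 in flox and 135, 120 and 122 in AKO, with a log2 fold change of 0.33 ± 0.14, an unadjusted limma p of 0.049 and an adjusted p of 0.330. The 6 other BAT peaks of Bmp7 ran from intron 3 to downstream of the gene, with fold changes from -0.09 to 0.33 and overlapping groups. These values depended on PC1. Without it all 7 BAT fold changes of Bmp7 were positive, with a median of 0.40 in place of 0.12, and the 2 peaks in intron 3 were at 0.86 and 1.16 in place of 0.23 and -0.0045, with unadjusted limma p-values of 0.0335 and 0.0452. An iWAT peak in its first intron held 58.5, 58.9 and 58.5 in flox and 54.2, 54.8 and 55.6 in AKO, which do not overlap but differ by only -0.09 ± 0.12.

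Bmp8b had the broadest start-site peak of all members in BAT, 2828 bases wide (chr4:123104681-123107508). Its samples were scattered, with 662, 732 and 1401 normalized reads in flox and 1275, 885 and 1125 in AKO, and its log2 fold change of 0.13 ± 0.40 had an interval from -0.80 to 1.06. It was -0.22 without AKO replicate 1 and 0.98 without flox replicate 3. The 4 iWAT peaks of Bmp8b were weak, and all had positive fold changes, with a median of 0.77. Of these, 3 had an unadjusted p under 0.05. The peak over exon 1 (chr4:123105280-123105570) held 22.1, 13.3 and 18.1 in flox and 42.6, 35.4 and 21.4 in AKO, a log2 fold change of 0.83 ± 0.28 with an adjusted p of 0.245. The peak 22.1 kb upstream held 12.8, 17.8 and 24.1 in flox and 21.9, 42.2 and 36.4 in AKO, with 0.83 ± 0.30. In both, the lowest AKO aliquot lay within the flox range, and the recovered reads behind these values numbered 12 to 37 per aliquot. DESeq2 gave none of the 4 peaks an adjusted p. In BAT a weak peak 44.2 kb upstream held 34.5, 35.5 and 36.2 in flox and 41.2, 63.7 and 44.1 in AKO without overlap, with 0.18 ± 0.20. The BAT peak of Bmp8b with the smallest p-value, 22.5 kb upstream, held 150.5, 124 and 206 in flox and 259.8, 212 and 173 in AKO with overlap, and 0.31 ± 0.31. Its log2 fold change was -0.08 without AKO replicate 1 and 0.77 without flox replicate 3, fits in which PC1 was also recomputed. The peak 44.2 kb upstream was at -0.05 without flox replicate 3.

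Bmp4 had 2 BAT peaks and 1 iWAT peak. The peak over its exon 2 held 114, 106 and 97.0 normalized reads in flox BAT and 113, 108 and 112 in AKO BAT, and 69.1, 65.6 and 73.2 in flox iWAT and 85.3, 61.7 and 85.5 in AKO iWAT. Its log2 fold changes were 0.18 ± 0.17 and 0.14 ± 0.17. A BAT peak 31.8 kb upstream (chr14:46422235-46422708) held 113, 120 and 120 in flox and 102, 75.3 and 72.9 in AKO without overlap, with a fold change of -0.44 ± 0.22 and an adjusted p of 0.611.

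Bmpr1b encodes the receptor BMPR1B (ALK6), and its locus held the members with the smallest p-values in BAT. It had 11 BAT peaks, 6 of them within intron 1 or over the start, and 10 of the 11 fold changes were negative, with a median of -0.34. Without PC1 9 of 11 remained negative, and over all alternatives between 8 and 11 were. A weak peak among the 11 lay inside another gene, Unc5c, 357.8 kb from the start. Its fold change was -0.47 ± 0.43 with PC1 and 0.18 without. The peak 83.3 kb into the gene (chr3:142085893-142086442) held 94.1, 115 and 138 normalized reads in flox and 68.0, 88.8 and 50.9 in AKO. All AKO values were below all flox values in this scaling. Scaled by total reads in peaks instead, AKO replicate 2 lay above flox replicate 1. The log2 fold change of this peak was -1.17 ± 0.22, with an adjusted p of 0.417 in limma, 0.126 in DESeq2 and 0.157 in edgeR.

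A second intron 1 peak of 1031 bases lay 78.7 kb from the start (chr3:142090253-142091283). It held 194, 231 and 296 normalized reads in flox and 142, 160 and 160 in AKO, again without overlap. Its log2 fold change was -0.87 ± 0.21, with an adjusted p of 0.440 in limma and 0.103 in DESeq2. With AKO replicate 2 left out, DESeq2 gave 0.0945, the only member call in BAT among its 6 fits with a sample left out. In 4 of these 6 fits the peak at 83.3 kb had no adjusted p. Another intron 1 peak at 30.4 kb (chr3:142138845-142139129) held 82.0, 66.5 and 94.4 in flox and 41.2, 79.2 and 30.7 in AKO, so that AKO replicate 2 lay among the flox samples, and had a log2 fold change of -1.30 ± 0.33. DESeq2 gave this peak no adjusted p with all samples, nor in 4 of the 6 fits with a sample left out. Without PC1 these 3 fold changes were -0.75, -0.62 and -0.77, all with the same sign. None of the 3 sites overlapped an iWAT peak of the gene.

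A further intron 1 peak without overlap lay 108.4 kb from the start. It held 87.3, 92.4 and 133 normalized reads in flox and 77.3, 48.3 and 85.4 in AKO. With total reads in peaks as the scale, AKO replicate 3 lay above flox replicate 1. The fold change of this peak, -0.47 ± 0.35, was close to its error and was 0.21 without flox replicate 3. The fold changes at 83.3, 78.7 and 30.4 kb stayed negative with any sample left out, from -1.41 to -0.95, from -0.98 to -0.63 and from -1.50 to -0.97. At the Bmpr1b start site in BAT (chr3:142168808-142169551) the groups overlapped, with 283, 225 and 308 normalized reads in flox and 232, 263 and 215 in AKO. There the log2 fold change was -0.33 ± 0.22, with an interval from -0.84 to 0.18.

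In iWAT the start site of Bmpr1b (chr3:142168884-142169481) held 53.5, 60.04 and 50.8 normalized reads in flox and 94.5, 76.5 and 106 in AKO. Every AKO aliquot was above every flox aliquot, with means of 54.8 ± 4.76 and 92.3 ± 14.8 (SD, n = 3 aliquots). The log2 fold change was 0.73 ± 0.16, with an adjusted p of 0.151 in limma, 0.099 in DESeq2 and 0.0296 in edgeR. The DESeq2 call rested on all 6 aliquots, since with any 1 left out its adjusted p was between 0.112 and 0.649. When limma was fitted only to peaks averaging 50 or more normalized reads, it gave an adjusted p of 0.0862. The sign at this site was negative in BAT and positive in iWAT, a difference between tissues that was not tested.

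The intron 1 peak of Bmpr1b in iWAT (chr3:142063587-142063875), 105.7 kb from the start, went the other way. It held 48.5, 50.03 and 64.6 normalized reads in flox and 36.9, 29.7 and 35.3 in AKO, with a log2 fold change of -0.66 ± 0.17 and an adjusted p of 0.177 in limma and 0.316 in DESeq2. The wider BAT peak over the same place held 175, 233 and 207 in flox and 178, 187 and 164 in AKO, with a fold change of -0.34 ± 0.20 and overlapping groups. An iWAT peak 70.1 kb upstream, inside the neighbouring gene Pdlim5, held 29.9, 37.8 and 33.6 in flox and 24.2, 29.7 and 24.6 in AKO, a log2 fold change of -0.36 ± 0.15. The 2 remaining iWAT peaks assigned to Bmpr1b lay inside another gene, Unc5c, 368 and 417.1 kb from the start, and were weak. They held 9.27 to 18.9 and 7.78 to 17.2 normalized reads in flox and 18.3 to 40.3 and 17.1 to 23.5 in AKO, with log2 fold changes of 1.03 ± 0.35 and 0.82 ± 0.27, and edgeR gave the first an adjusted p of 0.0955.

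**Figure D3:**
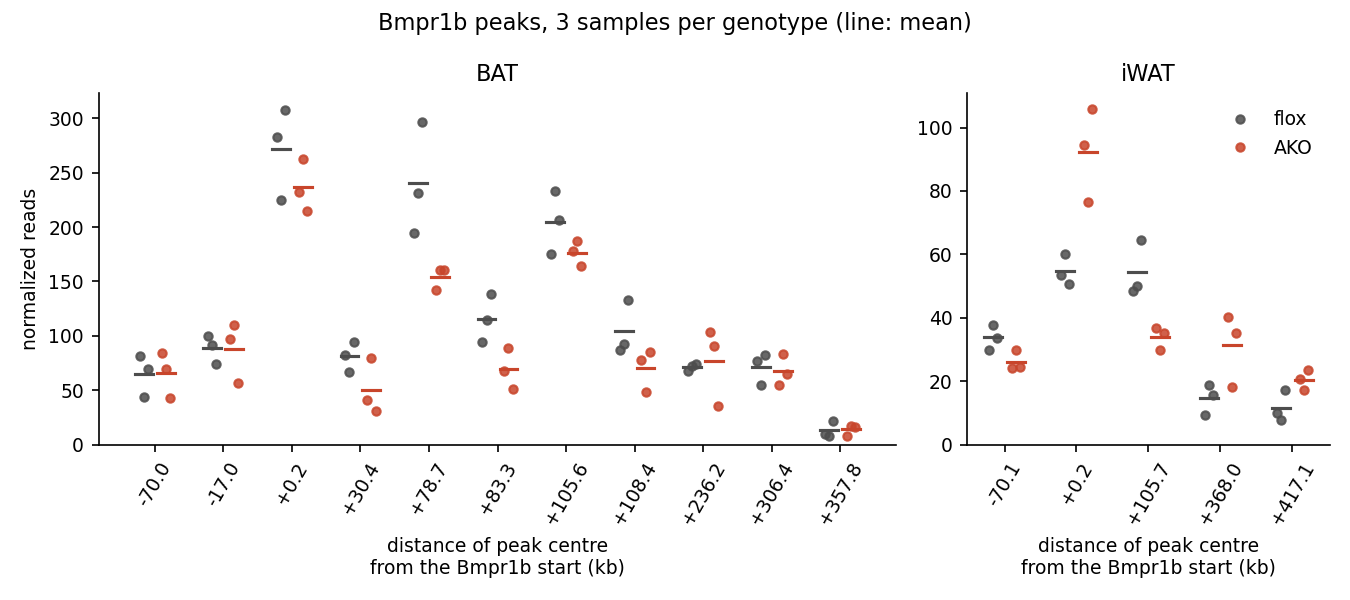
Normalized reads (y axis) at the 11 BAT and 5 iWAT peaks assigned to Bmpr1b, placed in order of the distance of their centre from the start in kilobases (x axis, not to scale, negative upstream), with a point per sample and a line at the mean of 3. In BAT the red AKO points lie below the grey flox points at 78.7, 83.3 and 108.4 kb, and in iWAT above them at the start and below them at 105.7 kb and 70.1 kb upstream.

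Bmpr1a, which encodes the widely expressed type I receptor BMPR1A (ALK3), showed no separation of the groups at any of 6 BAT or 5 iWAT peaks. Its start site held 828, 660 and 586 normalized reads in flox BAT and 692, 521 and 613 in AKO BAT, with a log2 fold change of 0.13 ± 0.18 at equal PC1 although the AKO mean was the lower one. In BAT 5 of its 6 fold changes were positive with PC1 and 2 of 6 without. In iWAT the start site held 319, 281 and 306 in flox and 319, 296 and 303 in AKO, a log2 fold change of 0.02 ± 0.13 with an interval from -0.28 to 0.31. All 5 iWAT fold changes were positive, from 0.02 to 0.49, and none had an unadjusted p under 0.05. The smallest p-value belonged to a weak intron 1 peak with 16.4, 12.2 and 8.61 in flox and 13.8, 19.4 and 19.2 in AKO. The BAT peak with the smallest p-value lay in intron 3, with 118, 84.2 and 73.7 in flox and 93.8, 83.1 and 116 in AKO, and 0.45 ± 0.22.

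Acvr1c had the most peaks, 13 in BAT and 7 in iWAT, of which 6 and 4 lay inside the neighbouring gene Acvr1, itself a BMP type I receptor, so that their assignment to Acvr1c rests on the deposited tables. In BAT 5 of its 13 fold changes were negative with PC1, with a median of 0.0077. Without PC1 10 of 13 were negative, with a median of -0.18. At the Acvr1c start site the BAT groups overlapped, with 551, 454 and 515 normalized reads in flox and 522, 427 and 503 in AKO. The log2 fold change there was 0.08 ± 0.19, and -0.07 without PC1. In iWAT (chr2:58357445-58358072) the aliquots held 109, 115 and 129 in flox and 160, 152 and 145 in AKO. These do not overlap, and the log2 fold change was 0.37 ± 0.13, with an unadjusted limma p of 0.0239 and an adjusted p of 0.257. The BAT peak with the smallest p-value, in intron 1, held 60.1, 56.9 and 97.0 in flox and 56.7, 48.3 and 43.2 in AKO, a fold change of -0.69 ± 0.29. It was -0.16 without flox replicate 3 and -1.02 without AKO replicate 1, with PC1 recomputed in each fit. An iWAT peak 99.4 kb upstream, inside Acvr1, held 67.7, 60.04 and 74.9 in flox and 41.5, 62.8 and 46.0 in AKO, with -0.44 ± 0.19 and an unadjusted limma p of 0.049.

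Bmpr2, the type II receptor of the set, had a single peak in each table, over its start. It held 840, 652 and 639 normalized reads in flox BAT and 736, 668 and 760 in AKO BAT, and 406, 342 and 415 in flox iWAT and 361, 420 and 383 in AKO iWAT. The log2 fold changes were 0.23 ± 0.19 and 0.0025 ± 0.14, and the groups overlapped in both tissues.

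The receptor SMADs held 11 peaks in each table. At their start sites the groups overlapped in both tissues. The Smad1 start held 698, 559 and 612 normalized reads in flox BAT and 579, 566 and 645 in AKO BAT, and 307, 306 and 341 in flox iWAT and 323, 295 and 344 in AKO iWAT. Its log2 fold changes were 0.05 ± 0.19 and 0.01 ± 0.13, the latter with an interval from -0.30 to 0.32. The Smad5 start held 599, 482 and 503 in flox BAT and 514, 456 and 556 in AKO BAT, and 263, 286 and 275 in flox iWAT and 205, 263 and 263 in AKO iWAT, with fold changes of 0.13 ± 0.18 and -0.18 ± 0.15. The Smad9 start held 233, 287 and 270 in flox BAT and 266, 373 and 294 in AKO BAT, and 82.7, 90.1 and 80.0 in flox iWAT and 89.9, 91.3 and 99.4 in AKO iWAT, with -0.03 ± 0.19 and 0.15 ± 0.13. Without PC1 the BAT start sites of Smad1, Smad5 and Smad9 were at -0.06, -0.05 and 0.23, each of the opposite sign.

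The member with the smallest p-value in iWAT lay 99.3 kb upstream of Smad1 (chr8:79498687-79498968). It held 55.6, 64.5 and 56.8 normalized reads in flox and 32.3, 28.5 and 31.0 in AKO, which leaves a wide gap between the groups. The means were 59.0 ± 4.82 and 30.6 ± 1.90 (SD, n = 3 aliquots), from 58 to 78 recovered reads per flox aliquot and 25 to 29 per AKO aliquot. The log2 fold change was -0.92 ± 0.13, with an adjusted p of 0.149 in limma, 0.105 in DESeq2 and 0.0349 in edgeR. No BAT peak of Smad1 overlapped it. A weaker iWAT peak 88.3 kb upstream held 13.5, 7.78 and 16.4 in flox and 26.5, 32.0 and 15.0 in AKO, with 0.90 ± 0.34 and overlapping groups, and the 3 intron peaks of Smad1 in iWAT had fold changes from -0.36 to 0.20.

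None of the other peaks of the receptor SMADs had an unadjusted limma p under 0.05. A BAT peak 20.5 kb upstream of Smad5 held 282, 296 and 286 in flox and 266, 209 and 232 in AKO without overlap, with a log2 fold change of -0.19 ± 0.19 at equal PC1. A BAT peak in the first intron of Smad9 held 110, 60.6 and 105 in flox and 115, 129 and 126 in AKO, also without overlap, with 0.45 ± 0.32. The highest fold change of all BAT members, 1.17 ± 0.55, belonged to a weak peak 24.6 kb upstream of Smad5 with 7.84, 10.3 and 15.5 in flox and 30.9, 9.66 and 26.9 in AKO, where AKO replicate 2 lay among the flox samples. In the first intron of Smad1, a BAT peak held 85.2, 79.8 and 67.3 in flox and 57.7, 96.6 and 72.9 in AKO, with -0.20 ± 0.28, which was 0.11 without AKO replicate 1. An iWAT peak 38.2 kb upstream of Smad5 held 54.2, 38.9 and 54.2 in flox and 44.95, 30.8 and 43.8 in AKO, with -0.30 ± 0.21. The groups overlapped at both.

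**Figure D4:**
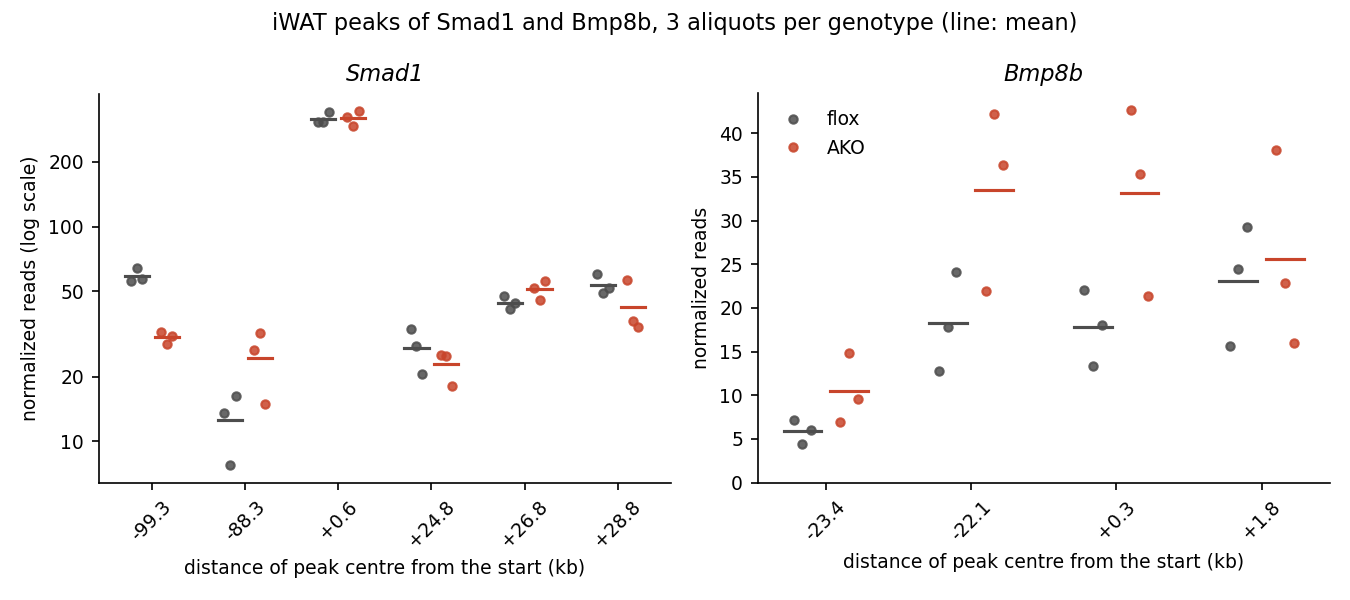
Normalized reads at the 6 iWAT peaks of Smad1 (left, log scale) and the 4 of Bmp8b (right, linear scale), in order of the distance of their centre from the start in kilobases (x axis, not to scale), with a point per aliquot and a line at the mean of 3. The Smad1 peak 99.3 kb upstream shows separate groups, 55.6 to 64.5 in flox and 28.5 to 32.3 in AKO, and the Bmp8b groups overlap at each peak.

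Of 64 other genes of the BMP and activin pathways, 58 had a peak in BAT (433 peaks) and 56 in iWAT (276 peaks). In BAT neither limma nor DESeq2 nor edgeR called any of these peaks, and DESeq2 gave 117 of them no adjusted p. At an unadjusted limma p under 0.05, 20 were lower (4.62%, beside 5.59% of all BAT peaks) and 16 higher (3.7%, beside 3.46%), and the median log2 fold change was 0.039. In iWAT limma called 0, with 15 lower (5.43%, beside 7.42%) and 22 higher (7.97%, beside 7.61%) at an unadjusted p under 0.05 and a median of 0.030. edgeR called 5 lower (1.81%, beside 2.52%) and 4 higher (1.45%, beside 2.15%). DESeq2 gave no adjusted p to 32 of the 276 peaks. It called 0 lower and 1 higher, beside 0.63% lower and 0.546% higher of all iWAT peaks with an adjusted p. The called peak lay in intron 3 of Smad6, an inhibitory SMAD that is itself a BMP target (chr9:63958400-63959435), with 135, 158 and 131 normalized reads in flox and 183, 206 and 235 in AKO. Its log2 fold change was 0.55 ± 0.15, with an adjusted p of 0.192 in limma and 0.0597 in DESeq2.

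The shares of peaks with an unadjusted limma p under 0.05 were also counted by role, with no test of a difference from the 5.59% lower and 3.46% higher of all BAT peaks or the 7.42% and 7.61% of all iWAT peaks. Among the other ligands, 6 of 45 BAT peaks were lower (13.3%) and 1 higher (2.22%), and 0 of 37 iWAT peaks lower and 3 higher (8.11%). The extracellular inhibitors, such as noggin and gremlins, had 4 of 89 lower (4.49%) and 3 higher (3.37%) in BAT, and 2 of 43 lower (4.65%) and 6 higher (14%) in iWAT. For the other receptors and coreceptors, 3 of 103 were lower (2.91%) and 2 higher (1.94%) in BAT, and 4 of 62 lower and 4 higher (6.45% each) in iWAT. The mediators and intracellular inhibitors had 5 of 147 lower (3.4%) and 8 higher (5.44%) in BAT, and 8 of 104 lower and 8 higher (7.69% each) in iWAT. The targets, among them the Id genes, had 2 of 49 lower and 2 higher (4.08% each) in BAT, and 1 of 30 lower and 1 higher (3.33% each) in iWAT.

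The sites of the 10 genes that were open in both tissues could be set side by side. A BAT peak overlapped an iWAT peak by at least 1 base in 26 pairs, which took in 25 of 56 BAT members (44.6%) and 26 of 37 iWAT members (70.3%). Both fold changes were positive in 15 pairs, both negative in 4 and opposite in 7. The pair with groups apart in both tables and the same direction was the Bmp7 start site, and no pair stood apart in opposite directions. The greatest contrast was the Bmpr1b start site, at -0.33 ± 0.22 in BAT and 0.73 ± 0.16 in iWAT. The tables come from different tissues and were normalized separately, and the BAT values carry the PC1 covariate, without which 19 of the 56 BAT signs turn.

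**Figure D5:**
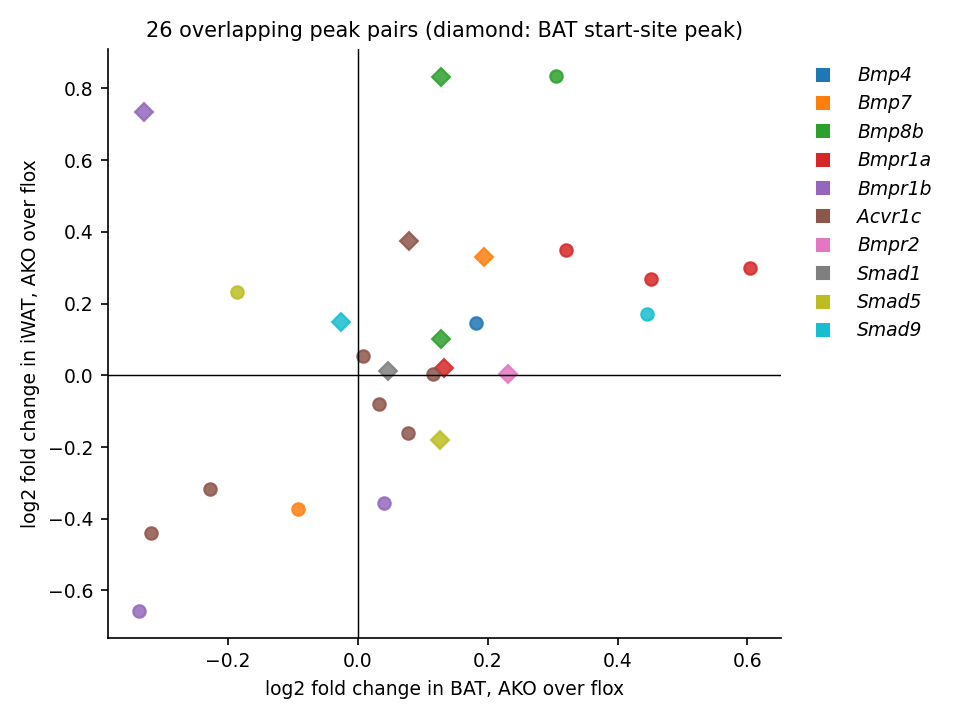
Log2 fold change, AKO over flox, in BAT (x axis) and iWAT (y axis) for the 26 pairs of overlapping peaks, coloured by gene, with diamonds for pairs whose BAT peak covers the start site. Of the 26 points 15 lie at the upper right and 4 at the lower left, and the Bmpr1b start site lies alone at the upper left edge.

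The base composition of the member peaks was compared with that of all peaks. In the central 200 bases of each peak, the median GC content was 50.2% in BAT members and 54% in iWAT members, beside 53% and 55.5% over all peaks, and 72.5% and 75.8% over the start-site peaks of the members. Exact letters were searched on both strands. The nuclear receptor motif AGGTCA was in 7 of 56 BAT members (12.5%) and 16.7% of all BAT peaks, and in 5 of 37 iWAT members (13.5%) and 13.3% of all iWAT peaks. The EBF core CCCNNGGG was in 5 BAT members (8.93%) beside 13.8% of all, and in 6 iWAT members (16.2%) beside 13%. The GC-rich SMAD site GGCGCC was in 3 members of each table (5.36% and 8.11%) beside 6.33% and 8.39% of all. In both tables its carriers were the start sites of Bmpr1a and Smad1 and the peak near 99.4 kb upstream of Acvr1c.

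The SMAD palindrome GTCTAGAC and the C/EBP palindrome TTGCGCAA were in no member peak, and in 0.167% and 0.116% of all BAT peaks and 0.195% and 0.144% of all iWAT peaks. In RefSeq promoter windows from 250 bases before to 50 after a start, which hold 14 entries for 9 of the genes, GGCGCC was found at Bmpr1a, Bmpr2, Smad5 and Smad9, 5 of 14 windows, and in 11.9% of all windows. CCCNNGGG was found at Acvr1c, Bmp4 and Smad5 and in 13.7% of all windows, and AGGTCA in 1 window of Bmpr1b, at a start inside the gene, and in 16.3% of all. A match of letters is a description and no evidence of binding.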

How the data were processed

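ATAC-seq was measured in 12 samples. Per the labels and methods, the authors mapped 38-bp read pairs to mm10 with BWA 0.7.17-r1188, marked duplicates with Picard 2.8.14, kept autosomal reads of mapping quality 30 or more, called broad peaks with MACS2 2.1.1.20160309 and merged 2 transposase reactions per sample. The labels and the methods give different numbers of nuclei per reaction. The deposited signal values are reads per peak, which the authors had scaled with a DESeq2 size factor for each sample, and dividing by the smallest step gave whole reads for 100% of values (tolerance 0.01). The deposited columns of the authors' comparison (base mean, log2 fold change, its error and statistic, p-value and adjusted p-value) were not used. The table named in the inguinal labels was taken as iWAT and the one with a PC1 covariate as BAT. No column of per-sample values was left unused.

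The members and lists were chosen with earlier results of these data known. All peaks of a table were fitted together with limma 3.58.1 on the log2 scale with 1 added to the normalized reads, comparing AKO to flox, with PC1 as a covariate in BAT only, Benjamini-Hochberg adjustment and a threshold of 0.1. DESeq2 1.42.0 and edgeR 4.0.16 on the recovered reads, other normalizations, pseudocounts of 0.1 and 10, a filter at a mean of 50, single samples left out, a replicate block and the other covariate choice were alternatives. With a BAT sample left out, PC1 was recomputed on the remaining samples. The fits were tested on simulated data with 200 changed peaks and no PC1 covariate, which leaves the BAT fits with PC1 untested. The 10 genes and Smarcd1 were named. For each member and table, the peak at or nearest to the start and the peak with the smallest p were described, besides any called by limma or DESeq2, and further peaks were singled out after their values were seen. Of the pathway list, up to 6 called genes per table were to be named, from DESeq2 where limma called none. Positions are 1-based in mm10, with the deposited starts read as counted from 0, genes follow the principal transcripts of GENCODE release M21, distances run from the start to the centre of a peak, and promoters come from RefSeq on GRCm38. Counting error limits weak peaks, since the median peak held 70 to 226 reads per BAT sample and 62 to 98 per iWAT sample. A sequence at 1 further site is not reported here. R 4.3.3 and Python 3.11.15 were used.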

Additional observations from a re-analysis of the deposited data

How the results depend on the processing

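Counts of member peaks with an adjusted p under 0.1 stayed at 0 in BAT under each limma alternative, DESeq2 and edgeR, except that DESeq2 gave 0 to 1 lower with a sample left out. In iWAT the filter at 50 normalized reads and DESeq2 gave 1 higher, and edgeR 1 lower and 2 higher, while DESeq2 with an aliquot left out gave 0 higher in all 6 fits. Counts at an unadjusted p under 0.05 moved more. BAT members lower (3) became 6 with the replicate block, 1 within 50 kb of the start and 2 to 5 with a sample left out, 5 without AKO replicate 1 or AKO replicate 2. BAT members higher (0) became 1 with pseudocount 10, with edgeR, or with no PC1 and the 2 samples at its ends left out, 3 without PC1 in limma or DESeq2, and 0 to 4 with a sample left out, 4 without flox replicate 3. In iWAT, members lower (4) became 2 with total reads, the replicate block, DESeq2 or edgeR, 1 with the filter or PC1, 0 within 50 kb, and 2 to 5 with an aliquot left out. Members higher (9) became 3 with the filter, 5 with the block, 1 with PC1 and 3 to 7 with an aliquot left out. Groups that did not overlap became 2 lower by total reads and 3 within 50 kb in BAT (6 otherwise), and 1 lower with the filter or within 50 kb in iWAT (4 otherwise). The 2 BAT peaks left by total reads were Bmpr1b at 78.7 kb and Bmp4 31.8 kb upstream. Among other pathway genes in BAT, unadjusted counts were 8 lower and 10 higher with DESeq2, 33 higher without PC1 and 29 higher with DESeq2 without PC1, where 2 were called higher, and leaving out a sample gave 13 to 21 lower and 10 to 27 higher. In iWAT, DESeq2 called 1 of them higher and edgeR 5 lower and 4 higher.

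Fold changes at the start-site and smallest-p peaks of the members and Smarcd1 changed sign in 24 of 339 BAT and 13 of 206 iWAT refits. These pooled counts mix unlike settings. Over all 56 BAT members, other scalings and pseudocounts turned 0 to 4 signs, the replicate block 15, and limma without PC1 19. Of the iWAT members with an unadjusted p under 0.05, 5 changed sign, all with a PC1 covariate, where PC1 itself separates the genotypes. These were Bmp8b exon 1 at -0.27 and 22.1 kb upstream at -1.03, the Acvr1c start at -0.70, Smad1 88.3 kb upstream at -1.66 and Bmpr1b at 368 kb at -1.16. Shared pairs numbered 26, or 18 when a fraction of 0.5 of each peak was required to be shared. Deviations of same-numbered samples from their group means correlated at 0.494, 0.0632 and -0.236 in BAT and -0.0387, -0.0497 and -0.0566 in iWAT. Those of differently numbered samples ran from -0.538 to 0.481 in BAT and from 0.0142 to 0.0406 in iWAT. Deviations from a mean of 3 depend on each other, so these values cannot decide whether replicate numbers pair the samples. The block is only a comparison. Restricting BAT to peaks with a deposited adjusted p was not run, because those columns were not used. Depth limits the weak iWAT peaks. The tables hold autosomes only, so an X-linked gene on the pathway list could have no peak and was counted among those without 1. Alternatives with DESeq2 and a sample left out, DESeq2 without PC1, edgeR and left-out samples on pathway peaks, and the removal of 2 samples were added after the data were seen. Median log2 fold changes of the members ranged from -0.13 to 0.11 in BAT and 0.02 to 0.17 in iWAT over the alternatives.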
